A study of Sus scrofa with 6 samples.

Results

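The genes described here are paternally expressed imprinted genes, measured by single-embryo RNA sequencing in pig embryos. A list of 10 such genes was used (*DIRAS3*, *PEG3*, *PEG10*, *MEST*, *PLAGL1*, *IGF2*, *NNAT*, *NDN*, *NAP1L5* and *SGCE*), and a gene was taken where the name column of the gene table held its symbol. By this rule, 8 of the 10 were found among 24358 genes. *PEG3* and *IGF2* appear in the table only under identifiers whose descriptions name them, so their values are given beside the members and were not counted with them. The study compared 3 uninjected control embryos with 3 *CARM1* KD embryos, for which siRNA against 3 sites of the *CARM1* coding region (about 10 pl at 50 μM) was injected into MII oocytes. Each library was made from 1 whole embryo at day 5, and the labels call the embryos blastocysts. The uninjected embryos carried no control siRNA, so injection and knockdown cannot be told apart in this comparison. The study used both parthenogenetic and in vitro fertilized embryos, and no label or method used here gives the kind that was sequenced. *ZFY* and *EIF1AY*, genes of the Y chromosome, which marks a paternal chromosome, were read only in *CARM1* KD 1 and 2 and are described below. An embryo made from the egg alone has no Y chromosome, so by these transcripts *CARM1* KD 1 and 2 were not parthenogenetic. The kind of the other embryos was not tested.

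Imprinted genes are read from only one parental copy, and DNA methylation laid down in the egg or the sperm marks which copy that is. Paternally expressed genes are silent on the chromosomes that come from the egg, so an embryo made from the egg alone is expected to transcribe little of them. Imprinting can be incomplete in the early embryo and can be limited to certain tissues or promoters, and for most genes it is known best from human and mouse. Gene-level counts do not say which parental copy was read. RNA that the oocyte stored before fertilization or activation is also counted in a whole embryo until it is degraded.

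The libraries held 26341924 to 41727594 counts, and 31.8% to 39.3% of the genes in the table had an FPKM of at least 1. FPKM scales a gene's fragments to its length and to the fragments of the library. *CARM1* itself had an FPKM of 1.96, 4.54 and 1.26 in control 1, 2 and 3, and 0.130, 0.150 and 0.274 in *CARM1* KD 1, 2 and 3. The groups did not overlap. In edgeR's quasi-likelihood test the log2 fold change was -3.98 (standard error 1.02; unadjusted p = 0.00516, adjusted p = 0.99989), whereas DESeq2 called *CARM1* with an adjusted p of 0.00474. An exact permutation test (2-sided) gave p = 0.1, which is the lowest value possible with 3 embryos in each group.

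The embryos stood apart in ways that the groups do not describe. The 11 oocyte markers in the table, among them *BMP15*, *WEE2*, *MOS* and *OOSP2*, reached a sum of 2785 FPKM in control 2, and in *CARM1* KD 3 the sum was 1362 FPKM. It was 481 and 134 FPKM in controls 1 and 3, and 195 and 18.4 FPKM in *CARM1* KD 1 and 2. *KRT18*, a keratin of the trophectoderm (the outer layer of the blastocyst), had a count of 0 in control 2 and *CARM1* KD 3, and was at 30.3 and 39.2 FPKM in controls 1 and 3 and at 68.9 and 165 FPKM in *CARM1* KD 1 and 2. Other blastocyst markers were mixed. Of 8 trophectoderm markers, 2, 3 and 1 had a count of 0 in control 1, 2 and 3, and 1, 0 and 6 in *CARM1* KD 1, 2 and 3. *TFAP2C* was at 27.9 to 50.1 FPKM in 5 embryos and 0.586 FPKM in control 2, *TEAD4* was at 3.38 to 14.5 FPKM in all 6, and *CDX2* had a count of 0 in 4 of the 6. Of the primitive endoderm factors, *GATA6* was at 12.7 to 50.5 FPKM in 5 embryos with a count of 0 in control 2, and *SOX17* had a count of 0 in all 6. Among 6 inner cell mass markers, *POU5F1* was read at 39.8 to 146 FPKM, *NANOG* had a count of 0 in control 2, and *TDGF1* had a count of 0 in control 2, control 3 and *CARM1* KD 3. Genes encoded in the mitochondria took 46.0% of the counts in control 2 and at most 23.9% elsewhere. Markers of cumulus and granulosa cells, which surround the oocyte, summed to at most 0.353 FPKM. Markers of blood and immune cells summed to 45.7 and 33.7 FPKM in *CARM1* KD 1 and 2, and to at most 29.6 FPKM elsewhere. Sperm markers summed to 23.5, 0 and 2.34 FPKM in controls 1 to 3 and 8.65, 8.25 and 0.169 FPKM in *CARM1* KD 1 to 3. *SPACA1* held 23.3 FPKM of the sperm sum in control 1. The source of these blood, immune and sperm marker transcripts was not tested.

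A direct marker of a paternal chromosome is the Y chromosome. *ZFY*, a zinc finger gene of the Y chromosome, had counts of 490 in *CARM1* KD 1 and 628 in *CARM1* KD 2, and a count of 0 in the other 4 embryos. *EIF1AY*, a Y-linked translation initiation factor gene, had counts of 1802 and 889 in the same pair and 0 in the other 4. Neither the control embryos nor *CARM1* KD 3 held these transcripts, so they did not follow the group as a whole. Without a control embryo that held them, an effect of *CARM1* KD on their level cannot be read. Of the 16 tested genes on chromosome Y, 12 were higher in the *CARM1* KD embryos at an unadjusted p under 0.05 and 0 at an adjusted p under 0.05 (edgeR). DESeq2 gave an adjusted p for 15 of the 16 and called 4 of them, including *EIF1AY*. Some other genes placed on chromosome Y were not limited to *CARM1* KD 1 and 2. All genes placed there summed to 28.1, 9.97 and 13.8 FPKM in controls 1 to 3 and 178, 215 and 23.8 FPKM in *CARM1* KD 1 to 3. *CD99* was read in every embryo but control 2. ENSSSCG00000035838, among the 12, had counts of 53, 0 and 87 in *CARM1* KD 1 to 3. A missing Y transcript does not separate an embryo with an X-bearing sperm from an embryo without a sperm genome. The paternally expressed autosomal genes do not depend on the sex of the embryo, and their levels are given next.

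Of the 8 members, 5, 4 and 2 had an FPKM of at least 1 in control 1, 2 and 3, and 4, 3 and 5 in *CARM1* KD 1, 2 and 3. The share of all genes at that level was 37.8%, 31.8% and 35.1% in controls 1 to 3. It was 35.6%, 36.4% and 39.3% in *CARM1* KD 1 to 3. At the lower bar of at least 3 counts, controls 1, 2 and 3 had 7, 5 and 5 members and *CARM1* KD 1, 2 and 3 had 7, 8 and 6. The share of all genes with at least 3 counts was not worked out, so these numbers do not set the members apart from other genes. The members at a count of 0 numbered 1, 3 and 3 in control 1, 2 and 3, and 1, 0 and 2 in *CARM1* KD 1, 2 and 3. Counts of 0 were common among all genes. Genes at 0 tied at percentile 19.6, 27.1 and 23.1 in controls 1 to 3, the middle of their ranks. A count of 0 allows up to 3 counts, which is a share of 7.19e-06% to 1.14e-05% of a library's counts, and this limit covers counting error only. The summed FPKM of the members was 30.3, 11.5 and 5.66 in controls 1 to 3 and 31.1, 58.7 and 20.9 in *CARM1* KD 1 to 3. The top of this range was set by *DIRAS3*, which made up 86.4% of the sum in *CARM1* KD 2 and 0% in control 2. Without *DIRAS3* the sums were 16.3, 11.5 and 5.21 FPKM in controls 1 to 3 and 10.1, 7.99 and 19.3 FPKM in *CARM1* KD 1 to 3, and *CARM1* KD 3 was then the highest in place of *CARM1* KD 2. In a whole embryo, fewer cells reading a gene and less of its RNA per cell cannot be told apart.

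**Figure D1:**
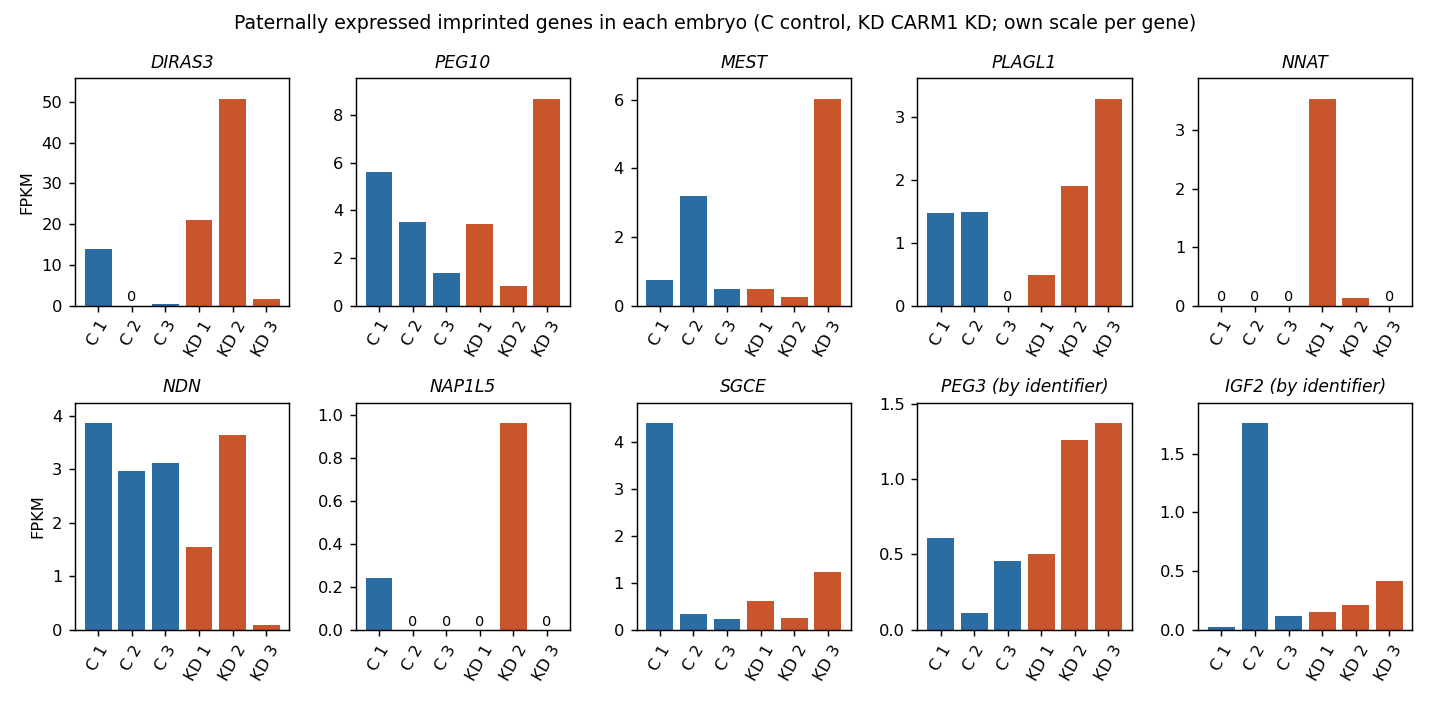
FPKM of the 8 paternally expressed genes and of *PEG3* and *IGF2* (found by identifier) in each of the 6 embryos; each bar is 1 embryo, each panel has its own axis from 0, blue is control (C), orange is *CARM1* KD (KD), and a printed 0 is a count of 0. No gene separates the groups, *NNAT* is read only in *CARM1* KD 1 and 2, and *DIRAS3* spans 0 to 50.7 FPKM.

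By length-scaled level, the order of the members was unstable between embryos. The mean FPKM in the control embryos ran from *DIRAS3* at 4.80 ± 7.94, *PEG10* at 3.50 ± 2.11 and *NDN* at 3.31 ± 0.478 down to *NAP1L5* at 0.0807 ± 0.140 and *NNAT* at 0 (SD, n = 3). In the *CARM1* KD embryos it ran from *DIRAS3* at 24.4 ± 24.8, *PEG10* at 4.31 ± 4.0 and *MEST* at 2.26 ± 3.26 down to *SGCE* at 0.701 ± 0.492 and *NAP1L5* at 0.320 ± 0.554 (SD, n = 3). Neighbours in either order had overlapping ranges over the 3 embryos of the group, so no neighbouring pair differed beyond its spread.

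The filter for testing (FPKM of 1 or more in 2 or more libraries) kept 6 members, and 0 of these 6 passed edgeR at an adjusted p under 0.05. Of all 10639 genes tested, 0% passed that threshold. At an unadjusted p under 0.05, 0 of the 6 members passed, beside 0.686% of all genes tested (36 higher and 37 lower). DESeq2 called 12 genes at an adjusted p under 0.05, and *CARM1* and the 4 genes on chromosome Y were part of these, but no member was. The FPKM ranges of the groups overlapped for all 8 members, and 4.89% of all genes tested had groups that did not overlap. Of the 6 tested members, 4 had a log2 fold change above 0 and 2 below 0, and 55.3% of all genes tested had a value above 0. The members' median log2 fold change was 0.11 and that of all genes tested was 0.10. All replicates are single embryos, and the fit has 4 residual degrees of freedom before edgeR moderates the dispersions over genes. The p-values set each difference against the spread between embryos. That spread was large, with a common biological coefficient of variation of 1.12. Without control 2 and *CARM1* KD 3, the embryos with the most oocyte RNA, 0 members passed an unadjusted p under 0.05 with edgeR. Of all 10639 genes, 103 were higher and 90 lower at that p in the same fit. The log2 fold changes of *PEG10*, *PLAGL1*, *NDN* and *SGCE* were then -0.61, 0.94, -0.30 and -2.24.

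**Figure D2:**
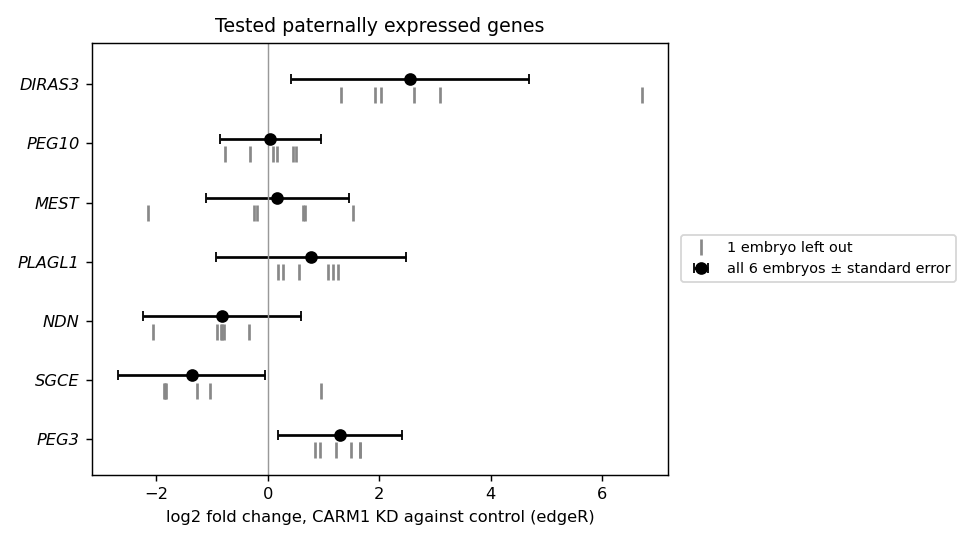
Log2 fold change of *CARM1* KD against control for the 6 tested members and for *PEG3*, found by identifier; points are the edgeR estimates from all 6 embryos, bars are ± 1 standard error, and grey ticks are the estimates with 1 embryo left out. *PEG10*, *MEST* and *SGCE* fall on either side of 0 depending on the embryo left out, while *DIRAS3*, *PLAGL1* and *PEG3* stay above 0 and *NDN* stays below it.

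*DIRAS3* encodes a small GTPase of the RAS superfamily that restrains growth in human cells, and mouse and rat have lost the gene. In the pig table it is ENSSSCG00000003797 on chromosome 6 (plus strand, 144576365 to 144578816, as the deposited table gives it in coordinates that match the pig assembly Sscrofa11.1), with 1 transcript of 1700 nucleotides in 2 exons. Its FPKM was 14.0, 0 and 0.445 in control 1, 2 and 3, from counts of 1042, 0 and 22. In *CARM1* KD 1, 2 and 3 its FPKM was 21.0, 50.7 and 1.55, from counts of 1478, 3390 and 113. High values thus occurred in control 1 and in *CARM1* KD 1 and 2, and low values in both groups. The edgeR log2 fold change was 2.55 (standard error 2.13; unadjusted p = 0.267, adjusted p = 0.99989), and the exact permutation test (2-sided) gave p = 0.2. Without control 1, whose level was near that of *CARM1* KD 1, the value was 6.70 (unadjusted p = 0.0414). Without *CARM1* KD 2 it was 1.31. Between the 2 control and 2 *CARM1* KD embryos that remain when control 2 and *CARM1* KD 3 are left out, it was 2.53 (standard error 1.33).

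The embryos without *KRT18* were among the 3 with the lowest *DIRAS3* levels. *DIRAS3* was at 0 and 1.55 FPKM in control 2 and *CARM1* KD 3, where *KRT18* had a count of 0, but it was also at only 0.445 FPKM in control 3, where *KRT18* was at 39.2 FPKM. The part of *KRT18*-expressing cells in the *DIRAS3* level was not tested. *WLS*, which carries WNT ligands to the cell surface, is the nearest named gene, 43472 bp away. Its FPKM was 34.9, 114 and 8.04 in controls 1 to 3 and 11.6, 3.15 and 60.9 in *CARM1* KD 1 to 3. *WLS* was thus highest where *DIRAS3* was at 0 and lowest where *DIRAS3* was highest, but both genes were low in control 3. The embryos stood in the same order by *WLS* as by summed oocyte markers, and the part of oocyte RNA in the *WLS* level was not tested. Among the tested genes, *LGALS4*, ENSSSCG00000035894 and *EIF4EBP3* had the profiles most like that of *DIRAS3*, with root mean square differences of 0.59, 0.62 and 0.64 between the centred log2(FPKM + 1) values over the 6 libraries. The SD of *DIRAS3* itself on that scale was 2.13.

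*PLAGL1* encodes a zinc finger transcription factor that slows the cell cycle and, in mouse, acts on other imprinted genes. It lies on chromosome 1 (plus strand, 21303994 to 21370631). Its FPKM was 1.47, 1.49 and 0 in control 1, 2 and 3, and 0.490, 1.90 and 3.29 in *CARM1* KD 1, 2 and 3. The counts were 497, 351 and 0, and 157, 576 and 1075. The gene was read in 5 embryos and not detected in control 3, the shallowest library, in which 0 counts were found where each other embryo had at least 157. Between groups, edgeR gave a log2 fold change of 0.77 (standard error 1.71; unadjusted p = 0.666, adjusted p = 0.99989). The transcript with the most upstream start, ENSSSCT00000058859, held 86.5% and 100% of the counts in controls 1 and 2, and 59.2%, 97.4% and 96.0% in *CARM1* KD 1, 2 and 3. ENSSSCT00000004562, which starts 23550 bp further in, held 40.8% of the counts in *CARM1* KD 1 and at most 3.91% in any other embryo. The 3 genes most like *PLAGL1* in profile were *ZNF454*, the cell cycle factor *FOXM1* and *RAB11B*, with differences of 0.14, 0.14 and 0.15.

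*NDN* encodes necdin, a protein of the MAGE family that restrains growth in neurons and lies in the human region deleted in Prader-Willi syndrome. In the pig it is a single-exon gene on chromosome 1 (plus strand, 142412565 to 142414242). Its FPKM was 3.86, 2.97 and 3.11 in control 1, 2 and 3, the tightest spread of any detected member in the control embryos relative to its mean. In *CARM1* KD 1, 2 and 3 it was 1.55, 3.64 and 0.0842, from counts of 108, 241 and 6. *NDN* was therefore low in *CARM1* KD 3 and close to the control level in *CARM1* KD 2. Its log2 fold change was -0.83 (standard error 1.42; edgeR, unadjusted p = 0.575, adjusted p = 0.99989), and -0.35 without *CARM1* KD 3. *MAGEL2*, its neighbour 34446 bp away and another paternally expressed gene of the same human region, had a count of 0 in all 6 embryos. The 3 most alike genes were *IL20RB*, ENSSSCG00000037609 and *AHSP*, with differences of 0.20, 0.27 and 0.28.

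*PEG10* encodes proteins derived from the gag and pol genes of an ancient retrotransposon and is needed for placenta formation in mouse. It lies on chromosome 9 (plus strand, 74474091 to 74486980), head to head with *SGCE* at a distance of 130 bp. Its FPKM was 5.60, 3.51 and 1.38 in control 1, 2 and 3, and 3.42, 0.831 and 8.68 in *CARM1* KD 1, 2 and 3. The counts of 217 to 2448 made it the member with the largest minimum count. The highest and the lowest value both fell in *CARM1* KD embryos. With edgeR the log2 fold change was 0.04 (standard error 0.90; unadjusted p = 0.964, adjusted p = 0.99989), and it turned to -0.77 without *CARM1* KD 3 and to -0.32 without control 3. Its closest profiles were those of *WSB2*, *AKAP11* and *POLR1E*, each with a difference of 0.22.

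*SGCE* encodes epsilon-sarcoglycan, a membrane protein of the dystrophin-associated complex, and loss of its paternal copy causes myoclonus-dystonia in human. It lies on the minus strand from 74402717 to 74473960 of chromosome 9, where *PEG10* lies on the plus strand. Its FPKM was 4.40, 0.344 and 0.238 in control 1, 2 and 3, and 0.607, 0.262 and 1.23 in *CARM1* KD 1, 2 and 3. The counts were 1167, 64 and 40, and 154, 63 and 317. Control 1 thus stood above each other embryo, and the remaining values of the 2 groups were mixed. For *SGCE*, edgeR gave a log2 fold change of -1.37 (standard error 1.32; unadjusted p = 0.332, adjusted p = 0.99989), and it was 0.95 without control 1. The pair shares a promoter region in human and mouse. In these embryos *CARM1* KD 3 and control 1 had the highest levels of both genes, and *CARM1* KD 2 and control 3 had the lowest levels of both. In controls 2 and 3, all *SGCE* counts were assigned to the 5165-nucleotide transcript ENSSSCT00000045086, which held 5.91% in control 1 and 0% in every *CARM1* KD embryo. The other 4 embryos had 72.7% to 100% of their *SGCE* counts in ENSSSCT00000029820. With 64 and 40 counts in the 2 control embryos, this split rests on few fragments, and no symbol is given in the table for the 3 genes most like *SGCE* in profile.

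*MEST* encodes a putative enzyme of the alpha/beta-hydrolase fold that affects fetal growth in mouse. It is annotated on the minus strand of chromosome 18 from 18291103 to 18351202 with 6 transcripts. Its FPKM was 0.730, 3.20 and 0.477 in control 1, 2 and 3, and 0.495, 0.257 and 6.02 in *CARM1* KD 1, 2 and 3. *MEST* was highest in *CARM1* KD 3 and control 2, the embryos with the most oocyte RNA, and lowest in *CARM1* KD 2, the embryo with the least. The order of the 6 embryos by *MEST* matched their order by summed oocyte markers except that control 2 and *CARM1* KD 3 changed places, and the part of oocyte RNA in the *MEST* level was not tested. Over all 6 embryos the log2 fold change was 0.17 (standard error 1.29; edgeR, unadjusted p = 0.898, adjusted p = 0.99989). It was -2.14 without *CARM1* KD 3 and 1.53 without control 2. With both left out it was -0.59 (standard error 1.12). The closest profiles belonged to *CDKN2B*, *LRFN1* and *FOXJ3*, with differences of 0.07, 0.09 and 0.12.

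**Figure D3:**
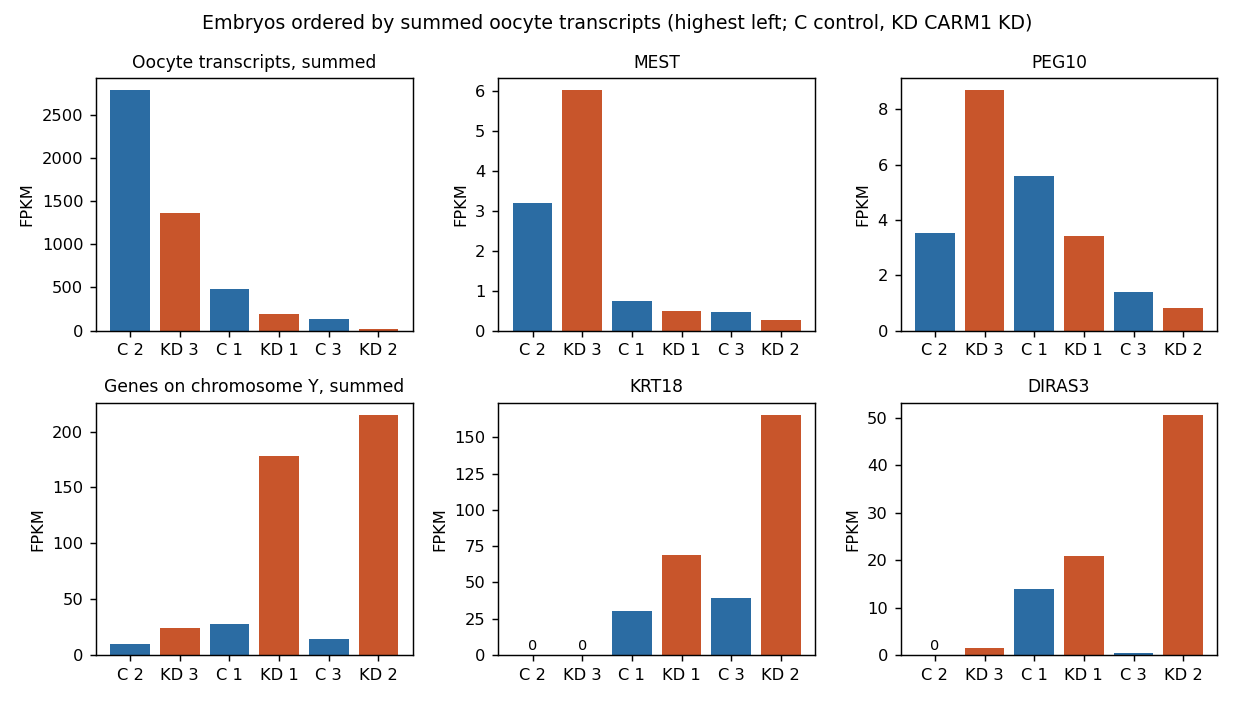
FPKM of summed oocyte markers, of *MEST* and *PEG10*, of all genes on chromosome Y summed, of *KRT18* and of *DIRAS3*; each bar is 1 embryo, blue is control (C), orange is *CARM1* KD (KD), all axes start at 0, and embryos stand in the order of the oocyte sum in every panel. *MEST* falls with the oocyte sum apart from its first 2 embryos, whereas *DIRAS3* and *KRT18* are highest in *CARM1* KD 2 at the opposite end.

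The split of the *MEST* counts between transcripts also differed between embryos. In human, the imprinted *MEST* transcript starts at a CpG island inside the gene, and transcripts from a promoter further upstream can be read from both parental copies. The sources used here do not match the pig transcripts to the human ones. ENSSSCT00000018024, of 2245 nucleotides, has the most upstream start of the pig transcripts, at position 18351202. It held 90.5%, 95.0% and 100% of the *MEST* counts in control 1, 2 and 3, 84.4% in *CARM1* KD 3, 14.2% in *CARM1* KD 1 and 0% in *CARM1* KD 2. ENSSSCT00000062911, of 2263 nucleotides, starts furthest downstream, 7162 bp from that start at position 18344040. It held 75.0% of the counts in *CARM1* KD 1 and 68.6% in *CARM1* KD 2, and 1.1%, 0.120%, 0% and 0% in control 1, 2, 3 and *CARM1* KD 3. In counts, these shares were 132 and 59 in *CARM1* KD 1 and 2, against 3, 1, 0 and 0. The downstream transcript was thus mostly read in the 2 embryos that also held *ZFY* and *EIF1AY*, and these transcripts were singled out after their values were seen. ENSSSCT00000039045, which starts 5354 bp from the most upstream start, held the other 31.4% in *CARM1* KD 2 and 15.4% in *CARM1* KD 3. The transcripts share most of their exons, so the counts are estimates of a model that assigns shared fragments, and no test was made of the shares.

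**Figure D4:**
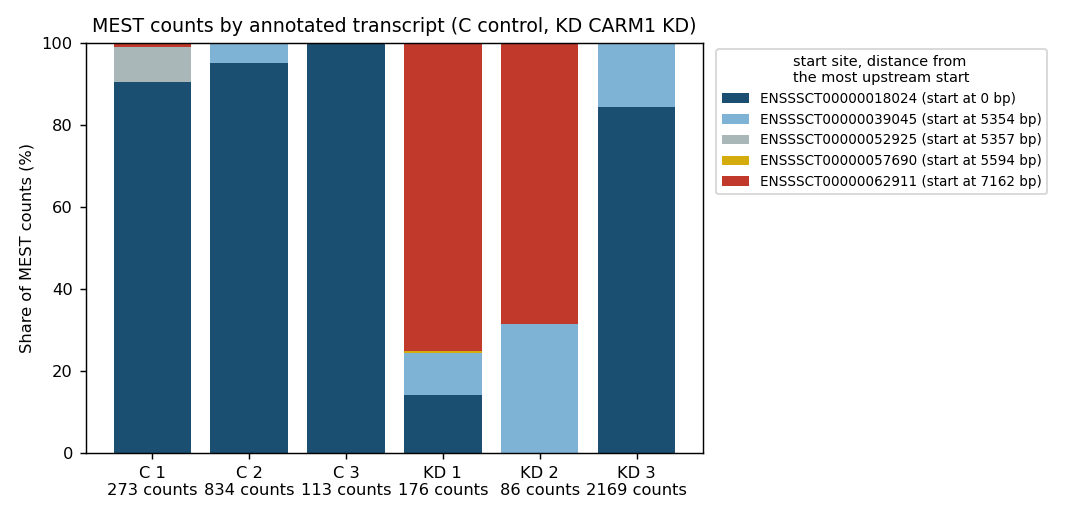
Share of *MEST* counts (percent, stacked to 100) by annotated transcript in each embryo (C control, KD *CARM1* KD), with the embryo's *MEST* count below each bar; colours mark the transcripts by the distance of their start from the most upstream start. The transcript with the start furthest downstream (red) holds 75.0% and 68.6% of the counts in *CARM1* KD 1 and 2 and at most 1.1% elsewhere.

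Another gene was read on the strand opposite to *MEST*. *COPG2*, which encodes a subunit of the coat of Golgi transport vesicles, overlaps *MEST* over 41114 bp. Its FPKM was 4.12, 26.3 and 0.534 in controls 1 to 3 and 1.40, 0.124 and 11.2 in *CARM1* KD 1 to 3, again highest in control 2 and *CARM1* KD 3. Most of the overlap lies in the span of ENSSSCT00000057690 alone, which held 0.192% of the *MEST* counts over all embryos. *COPG2* ends at 18332216, and ENSSSCT00000018024, with 82.4% of the *MEST* counts, reaches down to 18331775. ENSSSCT00000039045, with 11.5%, reaches down to 18326442. No source used here says if the counting used strand, so fragments of the overlap cannot be told apart.

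*NNAT* encodes neuronatin, a small membrane protein best known from developing brain and from pancreatic beta cells. It lies on chromosome 17 (plus strand, 40627090 to 40629518), with 1 transcript of 1262 nucleotides. No control embryo had any count of it, and there were counts of 186, 7 and 0 in *CARM1* KD 1, 2 and 3, or 3.54, 0.133 and 0 FPKM. *NNAT* was thus read in the same 2 embryos as *ZFY* and *EIF1AY*, with nearly all counts from *CARM1* KD 1. It did not pass the filter for testing. With counts pooled over each group and 3 counts as the floor for the controls, the *CARM1* KD pool was at least 54.2-fold higher. This bound covers counting error only and not the spread between embryos, since *CARM1* KD 3 had 0 counts like every control. Over embryos, the exact permutation test (2-sided) gave p = 0.4. An unnamed gene on the opposite strand, ENSSSCG00000037248, spans all of *NNAT* and had 1.81, 0 and 5.55 FPKM in controls 1 to 3 and 2.35, 2.89 and 1.07 FPKM in *CARM1* KD 1 to 3. Its highest level, from 25 counts in control 3, fell where *NNAT* had a count of 0, but *NNAT* was at 0 in 4 embryos.

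*NAP1L5* is a single-exon gene of the nucleosome assembly protein family that lies within the span of *HERC3* in human and mouse, as it does here. On pig chromosome 8 it spans 130364566 to 130365464. It had 10, 0 and 0 counts in control 1, 2 and 3, and 0, 34 and 0 counts in *CARM1* KD 1, 2 and 3, and it passed an FPKM of 1 in no embryo. The highest level was 0.960 FPKM in *CARM1* KD 2. *HERC3*, on the opposite strand, had 1.0, 5.39 and 0.475 FPKM in controls 1 to 3 and 0.697, 0.464 and 4.13 FPKM in *CARM1* KD 1 to 3. The 2 embryos with the most *HERC3* had no *NAP1L5* counts, but neither had control 3 and *CARM1* KD 1, where *HERC3* was low.

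The pair found by identifier gave similar mixtures. *PEG3* (ENSSSCG00000003326, chromosome 6, minus strand, 61283952 to 61307765) encodes a large zinc finger protein. Its FPKM was 0.612, 0.115 and 0.458 in controls 1 to 3 and 0.50, 1.26 and 1.37 in *CARM1* KD 1 to 3, with a count above 0 in every embryo. Its log2 fold change was 1.30 (standard error 1.11; edgeR, unadjusted p = 0.279, adjusted p = 0.99989). *IGF2* (ENSSSCG00000035293, chromosome 2, minus strand, 1469104 to 1485616), the fetal growth factor, had counts of 10, 443 and 27 in controls 1 to 3 and 52, 69 and 147 in *CARM1* KD 1 to 3. Its highest level, 1.76 FPKM, was in control 2, where the oocyte markers were highest. Of those 443 counts, 63.7% were assigned to ENSSSCT00000038020, a transcript with 0 counts in the other 5 embryos.

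Other genes of the imprinting system were read from lists chosen with earlier results of these data known. Of 19 further paternally expressed genes listed, 12 were in the table and 4 were tested, with 2 higher, 2 lower and 0 at an unadjusted p under 0.05 (median log2 fold change -0.80). *USP29*, a deubiquitinase gene beside *PEG3* in human and mouse, had 6.71, 0 and 2.05 FPKM in controls 1 to 3 and 5.33, 7.0 and 15.1 FPKM in *CARM1* KD 1 to 3. *ZIM2*, another gene of that region, had 5.35, 27.1 and 0.761 FPKM and 2.52, 1.39 and 8.85 FPKM, and was highest in control 2 and *CARM1* KD 3. Thus of 2 genes from the same imprinted region, control 2 lacked counts for 1 and had the highest level of the other. *IMPACT*, a regulator of translation, ranged from 0.679 to 5.19 FPKM, and *INPP5F*, a phosphoinositide phosphatase gene, from 0.352 to 8.01 FPKM.

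*ZDBF2*, a zinc finger gene chosen after its values were seen, had counts of 116, 0 and 11 in controls 1 to 3 and 215, 832 and 26 in *CARM1* KD 1 to 3. Its order over the 6 embryos was that of *DIRAS3*, with *CARM1* KD 2 and 1 and control 1 as the 3 highest and control 2 at 0. *ZFP57*, which encodes a zinc finger protein that keeps imprints methylated in mouse and human embryos, was chosen the same way. Its counts of 116, 0 and 0 in controls 1 to 3 and 132, 157 and 13 in the *CARM1* KD embryos again placed control 1 and *CARM1* KD 1 and 2 on top.

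Of 8 imprint maintenance genes listed, 7 were in the table and 6 were tested, with 4 higher, 2 lower and 0 at an unadjusted p under 0.05 (median log2 fold change 0.32). *DNMT1*, the enzyme that copies DNA methylation at replication and a transcript the oocyte stores, had 295, 1016 and 35.9 FPKM in controls 1 to 3 and 140, 11.9 and 186 FPKM in *CARM1* KD 1 to 3. *TRIM28*, the corepressor that ZFP57 recruits, was lowest in control 2 at 0.562 FPKM and highest in *CARM1* KD 2 at 32.5 FPKM, where *DNMT1* had its opposite extremes. In the other embryos no opposition was seen, with *TRIM28* at 15.0 and 10.3 FPKM in controls 1 and 3 and 10.4 and 17.3 FPKM in *CARM1* KD 1 and 3. *CTCF* and *SETDB1* ranged from 4.2 to 19 and from 1.63 to 10.9 FPKM. Of 22 maternally expressed genes listed, 18 were in the table and 11 were tested, with 5 higher, 6 lower and 0 at an unadjusted p under 0.05 (median log2 fold change -0.02). *PHLDA2*, a brake on placental growth in mouse, was at 173 FPKM in control 2 and between 2.04 and 36.7 FPKM in the other 5 embryos. *CDKN1C*, a cell cycle inhibitor, ranged from 1.78 to 25.4 FPKM, *CD81* from 15.8 to 34.2 FPKM and *NAP1L4* from 8.62 to 29.9 FPKM.

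Read embryo by embryo, control 1 held reads of 7 members, among them 1042 counts of *DIRAS3* and 1167 of *SGCE*, with no *ZFY* or *EIF1AY*. Control 2 had 0 counts of *DIRAS3*, *NNAT* and *NAP1L5*, and its leading members were *PEG10*, *MEST* and *NDN* at 3.51, 3.20 and 2.97 FPKM, beside the highest oocyte sum. Control 3 had the fewest members at an FPKM of at least 1, *PEG10* and *NDN* alone, and 0 counts of *PLAGL1*, *NNAT* and *NAP1L5*. *CARM1* KD 1 and 2 held *ZFY* and *EIF1AY*, *NNAT*, the downstream *MEST* transcript and the 2 highest levels of *DIRAS3*. *CARM1* KD 3 had the highest levels of *PEG10*, *MEST* and *PLAGL1*, 113 counts of *DIRAS3*, 6 counts of *NDN* and 0 of *NNAT* and *NAP1L5*. The median percentile of the members among all genes of the same library ran from 55.5 in control 3 to 71.6 in control 1, and the groups overlapped. RNA stored by the oocyte and RNA made by the embryo cannot be told apart in these counts, and neither can the parental copies.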

How the data were processed

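Single-embryo RNA-seq libraries of 3 uninjected control and 3 *CARM1* KD embryos were analysed, grouped by their labels. The deposited tables give an estimated count and an FPKM value per library for each of 24358 genes and 47421 transcripts. An FPKM of 0.0001 written at a count of 0 was read as 0. The study's methods name Cufflinks and the pig genome. StringTie, HISAT2, fastp, edgeR and the build GRCh38.p10 are named in the submitters' processing notes, and the sources used here do not give which made the values. Gene coordinates overlapped those of the same symbol in RefSeq Sscrofa11.1 for 99.94% of 14006 genes. Estimated counts were rounded, scaled by TMM and tested with edgeR's quasi-likelihood test over 10639 genes with Benjamini-Hochberg adjustment. Standard errors were the log2 fold change over the square root of F. The fit was tested on simulated data. Single genes were also compared by an exact permutation test on log2(FPKM + 1). Genes alike in profile were the 3 tested genes with the smallest root mean square difference from a member. Named were all members, *CARM1*, up to 4 genes of highest mean FPKM per list, listed genes at an unadjusted p under 0.05, and overlapping or nearest genes within 200 kb. Genes on chromosome Y at that p are given as a count, with *ZFY*, *EIF1AY* and ENSSSCG00000035838 named. *CDX2*, *TDGF1*, *ZDBF2* and *ZFP57* fall outside this rule, having been picked with their values in view. The members and lists were chosen with earlier results of these data known. Alternatives were DESeq2, limma with pseudocounts of 1 and 0.1, other filters, library weights, no mitochondrial genes, a replicate block, each embryo left out, and, chosen after seeing the data, control 2 and *CARM1* KD 3 left out. Python 3.11.15 (pandas 2.3.3, numpy 2.4.6, matplotlib 3.10.9, scipy 1.17.1) and R 4.3.3 (DESeq2 1.42.0, limma 3.58.1, edgeR 4.0.16) were used.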

Additional observations from a re-analysis of the deposited data

How the results depend on the processing

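The count of genes past an adjusted p under 0.05 was 0 with edgeR (73 at an unadjusted p under 0.05) and 12 with DESeq2, and 0 under the other alternatives, including each embryo left out (0 to 0). With the replicate block it was also 0, with 9 genes higher and 7 lower at an unadjusted p under 0.05 in place of 36 and 37. No pairing by the labels' replicate numbers was visible: deviations of embryos with the same number correlated at 0.18, -0.47 and -0.50. With 3 embryos in each group these correlations cannot exclude one. Under all alternatives 0 tested members passed an adjusted p under 0.05. For *PEG3* and the members tested in the main fit, the lowest adjusted p was 0.996 (that of *MEST* with DESeq2 was not given by the tool). *DIRAS3*, *PLAGL1* and *PEG3* stayed above 0 and *NDN* below 0 under every alternative that gave a value. The stricter filter kept *DIRAS3* as the only member. With no filter, all 8 members were tested with edgeR, and 1 had an unadjusted p under 0.05. It was *NNAT* or *NAP1L5*, which the main filter left out. Of all 18053 genes in that fit, 81 were higher and 162 lower at that p. The log2 fold change of *PEG10* turned to -0.071 with DESeq2, -0.24 with the replicate block, -0.030 with limma at a pseudocount of 0.1, -0.54 with library weights and -0.61 without control 2 and *CARM1* KD 3, and it ranged from -0.77 to 0.50 with 1 embryo left out. That of *MEST* turned to -0.092 with DESeq2, -0.35 with the replicate block, -0.094 with limma at a pseudocount of 0.1, -0.00083 with library weights and -0.59 without control 2 and *CARM1* KD 3, and it ranged from -2.14 to 1.53 with 1 embryo left out. That of *SGCE* ranged from -1.87 to 0.95 with 1 embryo left out, and only leaving out control 1 turned it. The causes were not tested. With CPM of nuclear genes in place of FPKM, 6, 5 and 5 members in controls 1 to 3 and 7, 7 and 5 in *CARM1* KD 1 to 3 were at 1 or above. At 0.1 FPKM or above, the numbers were 7, 5 and 5, and 7, 8 and 5. The share of all genes at these bars was not worked out.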
